A study of Homo sapiens with 12 samples.

Results

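The small RNA silencing machinery was examined through 10 genes: DROSHA and DGCR8, which cut primary microRNA transcripts in the nucleus, XPO5, which exports the hairpins, DICER1 and TARBP2, which cut them in the cytoplasm, the Argonautes AGO1, AGO2, AGO3 and AGO4, and TNRC6A, a GW182 scaffold. Every probe set that the platform annotation assigned to exactly 1 symbol, that symbol being one of these genes, was taken, which gave 31 probe sets of 9 genes among 41091 single-symbol probe sets of 19775 genes. DGCR8 has 0 such probe sets, because its 4 probe sets carry several symbols, and it was therefore not analysed here. A probe set is a group of short oligonucleotides on the array that together report 1 transcript. Of the 31 probe sets, 24 passed the filter on dim signals and were tested. A probe set passed when its mean over all arrays was at or above the median, and so could pass through the line in which it was bright.

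The arrays came from Pfeiffer and OCI-Ly7, lymphoma lines of the germinal centre B-cell type, and each line stands for 1 tumour only. The samples were of 4 kinds: Pfeiffer with BCL6 siRNA, Pfeiffer with non-target control, OCI-Ly7 with BCL6 siRNA and OCI-Ly7 with non-target control, 3 arrays each and all taken at 48 h after transfection. BCL6 is the transcriptional repressor that defines germinal centre B cells. By the descriptions and the design, both groups of a line had received an oligonucleotide. No untransfected cells were among the samples, and the sequence of neither oligonucleotide was in the labels. The sample titles and source names of the Pfeiffer controls read shRNA, while their descriptions and the design read siRNA. If the titles hold, the Pfeiffer groups differ in the kind of RNA given as well as in its target. No label says that replicates came from separate cultures. Each p-value therefore rests on the spread of these arrays alone, and that spread may be technical. Line and any batch of arrays cannot be told apart.

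MicroRNAs are made by stepwise cutting. Drosha, held by DGCR8, releases a hairpin from the primary transcript, exportin-5 carries it out of the nucleus, and Dicer with its double-stranded RNA-binding partner TRBP (TARBP2) trims it to a duplex. One strand is loaded into an Argonaute, which binds GW182 proteins such as TNRC6A, and these recruit the enzymes that shorten the poly(A) tail and remove the cap of the target mRNA. A transfected siRNA enters at the Argonaute step and bypasses Drosha and export. Among human Argonautes, AGO2 is the one known as an efficient slicer of perfectly matched targets, the activity on which siRNA knock-down rests. Dicer is needed for B-cell development in mice.

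AGO4, AGO1 and AGO3 lie next to each other on chromosome 1, in that order, between CLSPN and TEKT2, in the RefSeq gene table for GRCh38.p14. AGO4 holds the one knock-down call reported below and its neighbours hold none, so the RefSeq promoter windows of all 3 are shown, each from 250 bases before to 50 bases after the start, 5′ to 3′ on the plus strand of GRCh38.p14, with CpG dinucleotides in capitals.
AGO4 promoter, chr1:35807766-35808065 (plus strand): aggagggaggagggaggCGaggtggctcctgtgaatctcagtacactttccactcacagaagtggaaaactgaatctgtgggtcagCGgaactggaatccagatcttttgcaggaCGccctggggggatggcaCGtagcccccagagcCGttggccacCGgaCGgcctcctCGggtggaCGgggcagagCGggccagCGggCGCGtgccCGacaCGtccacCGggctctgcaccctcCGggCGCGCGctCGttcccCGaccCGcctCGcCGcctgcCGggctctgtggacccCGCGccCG
AGO1 promoter, chr1:35882959-35883258 (plus strand): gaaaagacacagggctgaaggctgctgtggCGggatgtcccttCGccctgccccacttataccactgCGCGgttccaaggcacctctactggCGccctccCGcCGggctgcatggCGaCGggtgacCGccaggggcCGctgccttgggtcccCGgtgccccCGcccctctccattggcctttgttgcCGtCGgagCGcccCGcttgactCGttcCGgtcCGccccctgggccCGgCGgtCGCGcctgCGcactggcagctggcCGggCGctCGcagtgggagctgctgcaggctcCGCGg
AGO3 promoter, chr1:35930855-35931154 (plus strand): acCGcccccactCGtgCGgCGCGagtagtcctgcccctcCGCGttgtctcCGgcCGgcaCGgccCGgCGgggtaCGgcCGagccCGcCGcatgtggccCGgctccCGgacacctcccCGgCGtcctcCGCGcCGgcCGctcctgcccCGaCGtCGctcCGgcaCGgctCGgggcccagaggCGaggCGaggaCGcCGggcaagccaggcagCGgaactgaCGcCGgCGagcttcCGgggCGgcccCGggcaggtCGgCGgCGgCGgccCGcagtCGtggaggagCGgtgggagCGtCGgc
The AGO4 window held 29 CpG dinucleotides and was 69.0% G or C. The AGO1 window held 30 at 72.3%, and the AGO3 window held 50 at 80.0%, against medians of 14 CpG dinucleotides and 58.7% over all RefSeq promoter windows. The core of the BCL6 recognition sequence, TTCNNNGAA, was searched on both strands and stood in 7.66% of 35116 windows of this length. Its longer form TTCCTAGAA, which is itself one of the core matches, stood in 0.373%. Neither had a match in the 15 windows listed for 9 of the genes, DGCR8 included. This says only that these letters are not in these windows.

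The targeted transcript checked the labels. BCL6 (203140_at) read 13.11, 13.04 and 12.75 in Pfeiffer with BCL6 siRNA, against 13.86, 13.92 and 14.01 in Pfeiffer controls, on the scale used throughout, log2 of the linear signal plus 16. In OCI-Ly7 it read 13.13, 13.10 and 13.15 with BCL6 siRNA and 13.50, 13.57 and 13.59 in controls. The change was −0.96 ± 0.08 in Pfeiffer (adjusted p = 7.28e-07) and −0.42 ± 0.08 in OCI-Ly7 (adjusted p = 0.0101), with 0.513 and 0.746 times the control signal. Errors after ± are limma standard errors, and adjusted p-values are limma's with Benjamini-Hochberg adjustment over 20546 probe sets, with a threshold of 0.05 for a call. The other BCL6 probe sets gave other sizes. Probe set 215990_s_at changed by −1.29 in Pfeiffer, 0.409 times the control signal (adjusted p = 8.86e-08), and by −0.49 in OCI-Ly7, 0.713 times (adjusted p = 0.00718). Probe set 228758_at changed by −0.97 in Pfeiffer (adjusted p = 2.01e-06) but was not called in OCI-Ly7, at −0.17 and 0.892 times (adjusted p = 0.434). The knock-down was thus partial and smaller in OCI-Ly7, with interaction terms of −0.54, −0.80 and −0.81 that were all called (adjusted p from 0.000674 to 0.00634). The OCI-Ly7 calls of 203140_at and 215990_s_at were lost in limma without a trend, at adjusted p of 0.0868 and 0.0571. Of 15 B-cell marker probe sets 12 were bright enough to be tested, while 0 of 6 T-cell and 0 of 7 myeloid ones were. Fibroblast and epithelial markers had 3 of 12, of EPCAM, KRT18 and COL1A1. None of the 3 was called with siRNA in either line, and all 3 were higher in Pfeiffer controls than in OCI-Ly7 controls. EPCAM, an epithelial adhesion molecule, averaged 14.06 in Pfeiffer controls and 5.00 in OCI-Ly7 controls, KRT18 averaged 8.66 and 6.78, and COL1A1, whose arrays overlapped, 8.40 and 7.92. In OCI-Ly7 controls EPCAM lay below the filter's level of 6.78 and KRT18 close to it. The filter thus favoured them through Pfeiffer, and their differences between lines are descriptions. All arrays had a trimmed mean signal of 500. The 3′ to 5′ log2 ratio ran from −0.149 to −0.027 for GAPDH and from 0.109 to 0.388 for ACTB, and replicate 3 of Pfeiffer with BCL6 siRNA was highest on both.

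With BCL6 siRNA, differences of the machinery from control mostly missed the test's threshold. In Pfeiffer 1 of the 24 tested probe sets was called, AGO4 227930_at, which fell. The share of all probe sets called there was 12.2%, with 6% higher and 6.24% lower, so 1 of 24 was below the background. In OCI-Ly7 0 of 24 were called, against 1.59% of all probe sets, 0.925% higher and 0.667% lower. Before adjustment, limma gave p under 0.05 for 2 of 24 in Pfeiffer, against 24.9% of all probe sets, and for 6 of 24 in OCI-Ly7, against 12.8%. The 6 belonged to 4 genes: DICER1 and AGO4 with 2 probe sets each, AGO3 and TNRC6A with 1 each.

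The median change of the 24 probe sets was 0.09 in Pfeiffer, against 0.01 over all probe sets tested, and 0.11 in OCI-Ly7, against −0.00081. Differences were above 0 for 17 of the 24 probe sets in Pfeiffer and for 15 in OCI-Ly7, against 51.1% and 49.8% of all probe sets. The 24 belong to only 9 genes, so these signs are not independent. With all probe sets of a gene averaged, AGO4, DICER1 and DROSHA lay below 0 in Pfeiffer. In OCI-Ly7 AGO2, AGO4, TARBP2 and TNRC6A did. The median absolute difference of the members was 0.14 in Pfeiffer, against 0.16 over all probe sets, and 0.20 in OCI-Ly7, against 0.12. The median standard error of a member was 0.13, so changes of the size of these medians could not be told from 0 for a typical probe set.

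**Figure D1:**
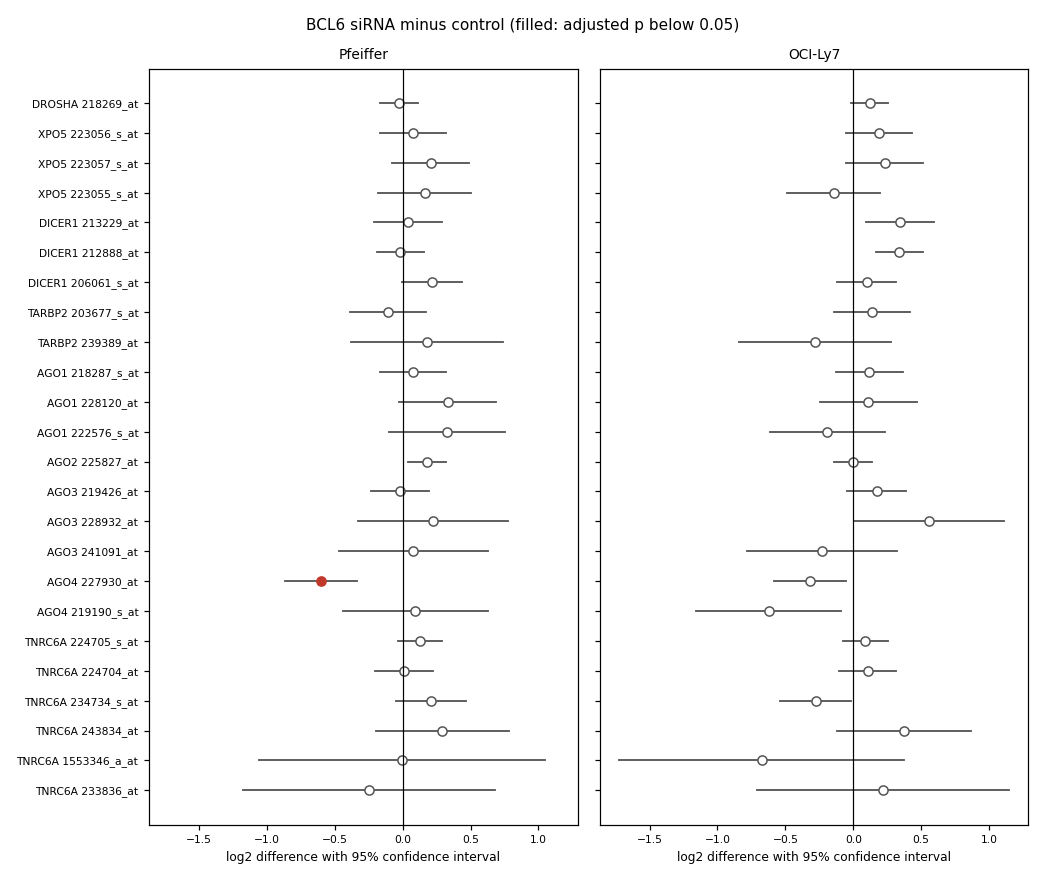
BCL6 siRNA minus control for the 24 tested probe sets in Pfeiffer and in OCI-Ly7, as the log2 difference with its limma 95% confidence interval. Points are filled where the adjusted p was below 0.05; the 1 filled point is AGO4 227930_at in Pfeiffer, at −0.60, and DICER1 212888_at in OCI-Ly7, at 0.34, just missed with an adjusted p of 0.051.

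The change itself was compared between the lines with an interaction term, Pfeiffer minus OCI-Ly7. None of the 24 probe sets was called, against 6.39% of all probe sets, and the smallest adjusted p among them was 0.0842. Before adjustment 2 of 24 had p under 0.05, against 20% of all probe sets: DICER1 212888_at and TNRC6A 234734_s_at. A response of any single member in one line only was therefore not shown by these arrays.

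The lines themselves differed far more than siRNA from control. In control arrays 14 of 24 probe sets, of 8 genes, were called between Pfeiffer and OCI-Ly7. This was fewer than the 71% of all probe sets called in that comparison, and the members' median absolute difference of 0.63 equalled that of all probe sets, 0.63. Higher in Pfeiffer were 9 probe sets of 6 genes, DROSHA, XPO5, TARBP2, AGO1, AGO2 and TNRC6A, against 33.6% of all probe sets. Lower in Pfeiffer were 5 probe sets of 2 genes, DICER1 and AGO4, against 37.4%. One of the 5, AGO4 219190_s_at, passed the filter only through OCI-Ly7, where it is high, so its difference between lines is a description. The median difference of the members was 0.37, against −0.06 over all probe sets tested. In such bulk RNA, fewer cells with a transcript and less of it per cell cannot be told apart. The epithelial markers given above, which the filter favoured through Pfeiffer, also differed between the lines, and their part in the line differences was not tested.

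**Figure D2:**
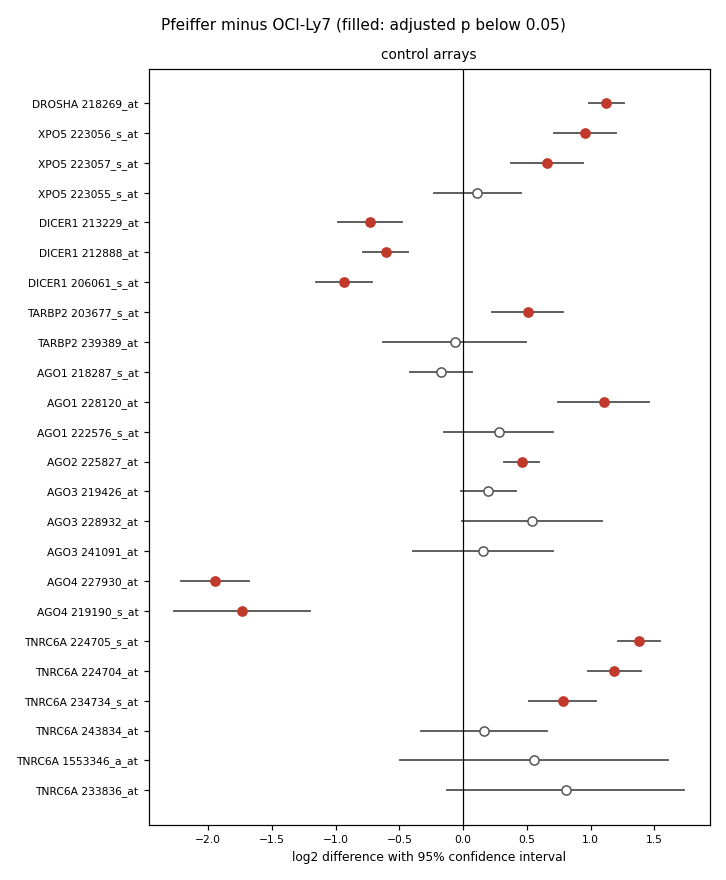
Pfeiffer minus OCI-Ly7 in control arrays for the 24 tested probe sets, as the log2 difference with its limma 95% confidence interval, filled where the adjusted p was below 0.05. All 3 DICER1 and both AGO4 probe sets lie to the left of 0, and the filled points of DROSHA, XPO5, TARBP2, AGO1, AGO2 and TNRC6A to the right.

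DROSHA, the nuclear ribonuclease, had a single probe set, 218269_at. It read 11.65, 11.62 and 11.58 in Pfeiffer with BCL6 siRNA and 11.56, 11.73 and 11.64 in Pfeiffer controls. OCI-Ly7 gave 10.67, 10.62 and 10.62 with BCL6 siRNA and 10.46, 10.61 and 10.49 in controls. The arrays overlapped between siRNA and control in Pfeiffer, and lay side by side without overlap in OCI-Ly7. The change was −0.03 ± 0.06 in Pfeiffer (adjusted p = 0.857) and 0.12 ± 0.06 in OCI-Ly7 (adjusted p = 0.473), neither past the threshold. Between the control arrays of the lines DROSHA differed by 1.12 ± 0.06, or 2.18 times the signal in Pfeiffer (95% interval 0.99 to 1.26 on the log2 scale; adjusted p = 2.76e-10), with no overlap.

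XPO5, the exportin of microRNA hairpins, had 3 tested probe sets. The brightest, 223056_s_at, read 10.64, 10.53 and 10.49 in Pfeiffer with BCL6 siRNA against 10.49, 10.44 and 10.50 in Pfeiffer controls. The values in OCI-Ly7 were 9.57, 10.00 and 9.56 with BCL6 siRNA against 9.47, 9.71 and 9.38 in controls. siRNA and control arrays overlapped in each line. The second probe set, 223057_s_at, read 9.69, 9.77 and 9.65 against 9.60, 9.27 and 9.63 in Pfeiffer, siRNA against control, and 9.19, 8.96 and 9.04 against 8.97, 8.99 and 8.55 in OCI-Ly7, and here the Pfeiffer groups did not overlap. Changes with siRNA for the 3 probe sets were 0.08, 0.21 and 0.16 in Pfeiffer and 0.19, 0.23 and −0.14 in OCI-Ly7, none of them called. The probe sets disagreed on the difference between lines: 223056_s_at was higher in Pfeiffer controls by 0.96 ± 0.11 (adjusted p = 1.66e-06) and 223057_s_at by 0.66 ± 0.13 (adjusted p = 0.000343), while 223055_s_at differed by 0.11 ± 0.16 (adjusted p = 0.548).

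DICER1, the cytoplasmic ribonuclease, had 6 probe sets, 3 of them tested. The closest any member came to a call in OCI-Ly7 was 212888_at. This probe set read 10.51, 10.38 and 10.15 in Pfeiffer with BCL6 siRNA, against 10.35, 10.38 and 10.36 in Pfeiffer controls. In OCI-Ly7 it read 11.29, 11.26 and 11.38 with BCL6 siRNA, against 10.93, 11.01 and 10.98 in controls. The Pfeiffer groups overlapped and the OCI-Ly7 groups stood apart. Its change was −0.02 ± 0.08 in Pfeiffer (adjusted p = 0.93) and 0.34 ± 0.08 in OCI-Ly7 (95% interval 0.17 to 0.51; adjusted p = 0.051). The difference between these changes was −0.36 ± 0.12 (95% interval −0.60 to −0.11) with an adjusted p of 0.0842, and without replicate 1 of Pfeiffer with BCL6 siRNA it was called, at −0.44 (adjusted p = 0.028; range over 22 alternatives 0.028 to 0.183). The OCI-Ly7 call depended on the arrays and settings: the adjusted p ran from 0.0102 to 0.183 over 23 alternatives, 7 of which called it. Leaving out replicate 1 of Pfeiffer with BCL6 siRNA gave 0.0309 and leaving out its replicate 3 gave 0.0102, through the shared estimate of spread.

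The other DICER1 probe sets gave the same picture in part. The brightest, 213229_at, read 11.02, 10.68 and 10.49 in Pfeiffer with BCL6 siRNA and 10.53, 10.86 and 10.69 in Pfeiffer controls, which overlapped (change 0.04 ± 0.12, adjusted p = 0.892). The values in OCI-Ly7 were 11.79, 11.66 and 11.88 with BCL6 siRNA, against 11.51, 11.46 and 11.31 in controls, again without overlap (0.35 ± 0.12, adjusted p = 0.196). The third, 206061_s_at, read 9.45, 9.10 and 9.32 with BCL6 siRNA against 9.02, 9.15 and 9.06 in Pfeiffer controls, and 10.05, 10.24 and 10.03 against 10.11, 9.96 and 9.97 in OCI-Ly7. Both pairs of groups overlapped, with changes of 0.22 ± 0.10 in Pfeiffer (adjusted p = 0.21) and 0.10 ± 0.10 in OCI-Ly7 (adjusted p = 0.776). All 3 were lower in Pfeiffer controls than in OCI-Ly7 controls, with differences of −0.73 ± 0.12 for 213229_at (adjusted p = 4.05e-05), −0.61 ± 0.08 for 212888_at (adjusted p = 6.08e-06) and −0.93 ± 0.10 for 206061_s_at (adjusted p = 6.92e-07). The DICER1 mRNA signal was thus lower in Pfeiffer controls by 3 probe sets, and that of DROSHA higher by its 1 probe set. In the same comparison 71% of all probe sets were called.

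**Figure D3:**
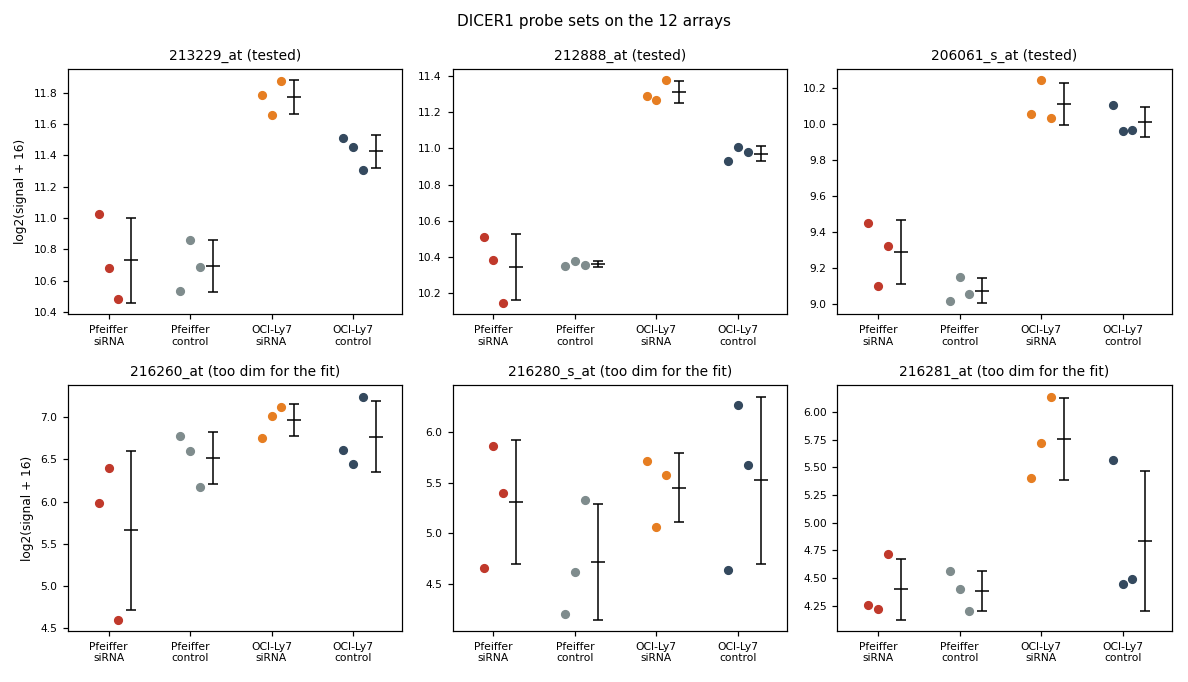
Values of the DICER1 probe sets on the 12 arrays, as log2 of the signal plus 16, each point 1 array and the bar the mean ± SD (n = 3). The vertical axes differ between panels; in 212888_at and 213229_at the Pfeiffer groups overlap, and the OCI-Ly7 arrays with BCL6 siRNA all lie above the OCI-Ly7 controls.

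TARBP2 codes for the partner that helps Dicer hand the duplex to an Argonaute. Its brighter probe set, 203677_s_at, read 9.95, 9.69 and 9.87 in Pfeiffer with BCL6 siRNA against 9.96, 9.89 and 9.98 in Pfeiffer controls. The values in OCI-Ly7 were 9.71, 9.79 and 9.22 with BCL6 siRNA against 9.46, 9.55 and 9.29 in controls. The groups overlapped in both lines, and the change was −0.11 ± 0.13 in Pfeiffer (adjusted p = 0.668) and 0.14 ± 0.13 in OCI-Ly7 (adjusted p = 0.749). Pfeiffer controls were higher than OCI-Ly7 controls by 0.51 ± 0.13 (adjusted p = 0.00256), but the dimmer 239389_at differed by −0.07 ± 0.26 (adjusted p = 0.831), and the mean of both probe sets by 0.22 (adjusted p = 0.237). With siRNA 239389_at differed by 0.18 in Pfeiffer and by −0.28 in OCI-Ly7, neither called.

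AGO4 held the one call of the knock-down comparison. Its brightest probe set, 227930_at, read 7.82, 8.04 and 7.87 in Pfeiffer with BCL6 siRNA, against 8.69, 8.31 and 8.54 in Pfeiffer controls. In OCI-Ly7 it read 9.90, 10.29 and 10.22 with BCL6 siRNA, against 10.49, 10.42 and 10.45 in controls. In each line every siRNA array lay below every control array, and both Pfeiffer groups lay below both OCI-Ly7 groups. The fall was −0.60 ± 0.12 in Pfeiffer (95% interval −0.86 to −0.33; adjusted p = 0.0052), which left 0.661 times the control signal. In OCI-Ly7 the difference was −0.32 ± 0.12 (95% interval −0.59 to −0.06; adjusted p = 0.277), and the changes differed between lines by −0.28 ± 0.18 (adjusted p = 0.417).

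The Pfeiffer fall of 227930_at was called in 24 of 25 alternatives. With any 1 of the 12 arrays left out it ran from −0.70 to −0.51, with adjusted p from 0.00329 to 0.0295. It was not called when the 4 probe sets of AGO4 were averaged (−0.17 ± 0.19, adjusted p = 0.640), and the other 3, all dim in Pfeiffer, differed by 0.09, 0.54 and −0.73 there. Of the 12 tested B-cell marker probe sets 9 were lower and 0 higher with BCL6 siRNA in Pfeiffer, against 6.24% and 6% of all probe sets. In OCI-Ly7 0 were lower and 3 higher, against 0.667% and 0.925%. Of 7 tested germinal centre marker probe sets, those of BCL6 included, 5 were lower and 1 higher in Pfeiffer, against 6.24% and 6%. The lower ones were 203140_at, 215990_s_at and 228758_at of BCL6, the siRNA target itself, with MYBL1 and GCSAM, and MME was higher. In OCI-Ly7 3 of these 7 were lower and 0 higher, against 0.667% and 0.925%, and the lower ones were BCL6 203140_at and 215990_s_at and MYBL1. The part of either marker list in the AGO4 result was not tested.

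The second tested AGO4 probe set, 219190_s_at, passed the filter through OCI-Ly7 and lay below the filter's level in all 6 Pfeiffer arrays. It read 6.78, 6.23 and 6.36 in Pfeiffer with BCL6 siRNA and 6.51, 5.96 and 6.62 in Pfeiffer controls, which overlapped (0.09 ± 0.25, adjusted p = 0.868). OCI-Ly7 gave 7.77, 7.27 and 7.37 with BCL6 siRNA and 8.06, 8.16 and 8.07 in controls, without overlap (−0.62 ± 0.25, adjusted p = 0.299). The dim 222842_at ran from 4.78 to 6.61 in Pfeiffer, where its groups overlapped. In OCI-Ly7 it read 6.21, 6.28 and 6.49 with BCL6 siRNA against 7.52, 7.53 and 7.44 in controls, a difference of −1.17 with p = 0.1 in an exact two-sided permutation test, the lowest value possible for groups of 3. The dim 1569408_at read 4.84, 4.24 and 4.12 with BCL6 siRNA against 4.42, 5.36 and 5.62 in Pfeiffer controls, and 5.48, 5.69 and 5.91 against 6.22, 5.80 and 5.73 in OCI-Ly7, with overlap in each line. The AGO4 means were thus lower with BCL6 siRNA for 2 of 4 probe sets in Pfeiffer, with 1 of 2 tested called, and for 4 of 4 in OCI-Ly7, with 0 of 2 tested called. Between control arrays AGO4 was lower in Pfeiffer, with a difference of −1.94 ± 0.12 for 227930_at (adjusted p = 1.03e-09), 0.26 times the OCI-Ly7 signal. For 219190_s_at the difference was −1.73 ± 0.25, given as a description because the filter favoured it.

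**Figure D4:**
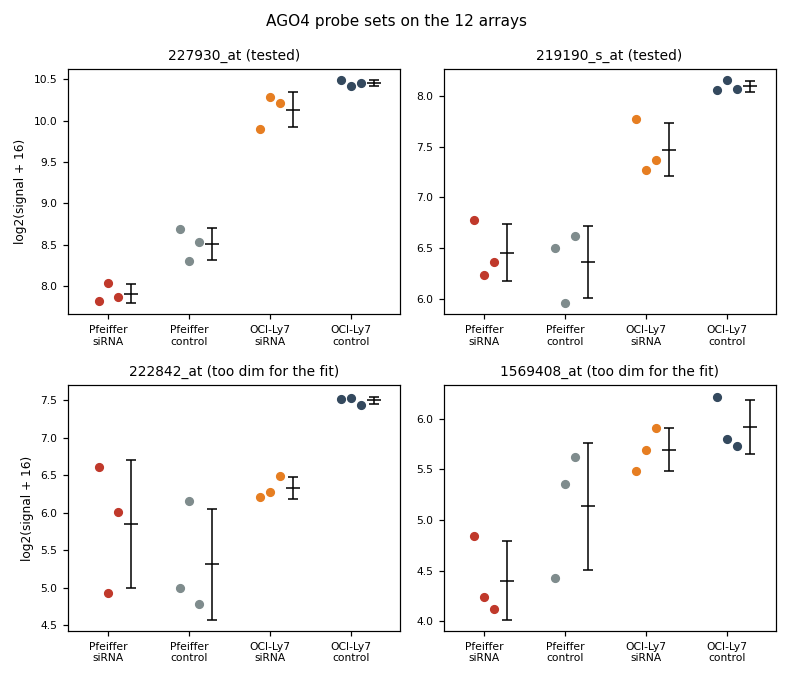
Values of the AGO4 probe sets on the 12 arrays, as log2 of the signal plus 16, each point 1 array and the bar the mean ± SD (n = 3), with vertical axes that differ between panels. In 227930_at the siRNA arrays lie below the controls in both lines, at means of 7.91 with siRNA and 8.51 in controls in Pfeiffer, and 10.13 with siRNA and 10.46 in controls in OCI-Ly7.

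AGO2, the slicer, had 1 single-symbol probe set, 225827_at, and 3 with several symbols that were left out. It read 11.64, 11.68 and 11.64 in Pfeiffer with BCL6 siRNA, against 11.50, 11.50 and 11.42 in Pfeiffer controls. OCI-Ly7 gave 10.99, 11.00 and 11.05 with BCL6 siRNA, against 11.13, 11.02 and 10.89 in controls. The Pfeiffer groups did not overlap and the OCI-Ly7 groups did. The change was 0.18 ± 0.06 in Pfeiffer (95% interval 0.04 to 0.32; adjusted p = 0.0904), which missed the threshold in all 25 alternatives too, with adjusted p from 0.0577 to 0.242. In OCI-Ly7 it was −0.00069 ± 0.06 (95% interval −0.14 to 0.14; adjusted p = 0.998). AGO2 was higher in Pfeiffer controls than in OCI-Ly7 controls by 0.46 ± 0.06, or 1.38 times (adjusted p = 1.05e-05).

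AGO1, which lies between AGO4 and AGO3, had 3 tested probe sets and none called with siRNA. The brightest, 218287_s_at, read 8.87, 8.84 and 8.92 in Pfeiffer with BCL6 siRNA against 8.76, 8.82 and 8.81 in Pfeiffer controls, and 9.03, 9.06 and 9.19 against 8.82, 9.20 and 8.91 in OCI-Ly7. The Pfeiffer groups were close but did not overlap (0.08 ± 0.11, adjusted p = 0.747), and those of OCI-Ly7 overlapped (0.12 ± 0.11, adjusted p = 0.749). Probe set 228120_at read 8.95, 9.03 and 8.98 in Pfeiffer with BCL6 siRNA against 8.80, 8.56 and 8.60 in Pfeiffer controls, without overlap (0.33 ± 0.17, adjusted p = 0.239). OCI-Ly7 gave 7.87, 7.77 and 7.35 with BCL6 siRNA against 7.64, 7.29 and 7.73 in controls, with overlap (0.11 ± 0.17, adjusted p = 0.858). Between control arrays 228120_at was higher in Pfeiffer by 1.10 ± 0.17 (adjusted p = 2.34e-05), whereas 218287_s_at differed by −0.18 ± 0.11 (adjusted p = 0.183) and 222576_s_at by 0.28 ± 0.20 (adjusted p = 0.223), so the AGO1 probe sets disagreed. Under quantile normalization 222576_s_at was called too, at 0.49 (adjusted p = 0.0333; range over 20 alternatives 0.0333 to 0.412). The third probe set, 222576_s_at, changed by 0.33 ± 0.20 in Pfeiffer (adjusted p = 0.342) and by −0.19 ± 0.20 in OCI-Ly7 (adjusted p = 0.775).

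AGO3 also had 3 tested probe sets, and 0 were called in any comparison. Its brightest, 219426_at, read 9.33, 9.24 and 9.15 in Pfeiffer with BCL6 siRNA against 9.28, 9.27 and 9.24 in Pfeiffer controls, and 9.34, 9.27 and 9.10 against 9.16, 8.99 and 9.04 in OCI-Ly7. siRNA and control arrays overlapped in both lines (−0.02 ± 0.10 with adjusted p = 0.937 in Pfeiffer, 0.17 ± 0.10 with adjusted p = 0.524 in OCI-Ly7). Probe set 228932_at ran from 7.29 to 8.21 in Pfeiffer and the groups overlapped (0.23 ± 0.26, adjusted p = 0.652). OCI-Ly7 gave 7.52, 7.54 and 7.89 with BCL6 siRNA against 7.40, 7.02 and 6.87 in controls, without overlap (0.56 ± 0.26, adjusted p = 0.387). The dimmest of the 3, 241091_at, differed by 0.08 in Pfeiffer and by −0.23 in OCI-Ly7, with overlap in each. Pfeiffer controls differed from OCI-Ly7 controls by 0.20 ± 0.10 for 219426_at (adjusted p = 0.0914), 0.54 ± 0.26 for 228932_at (adjusted p = 0.0737) and 0.16 ± 0.26 for 241091_at (adjusted p = 0.602). Quantile normalization, which moved the median of all probe sets by 0.08 in this comparison, called 219426_at at 0.30 (adjusted p = 0.0147) and 228932_at at 0.75 (adjusted p = 0.0156), and the mean of all 4 AGO3 probe sets was called at 0.56 (adjusted p = 0.0032). Leaving out replicate 2 of the Pfeiffer controls or replicate 1 of the OCI-Ly7 controls also led to a call of 228932_at, at 0.71 and 0.69. The adjusted p over all alternatives ran from 0.0032 to 0.229 for 219426_at and from 0.0156 to 0.372 for 228932_at. Thus of the chromosome 1 Argonautes whose promoters are shown above, AGO4 read lower in Pfeiffer than in OCI-Ly7 by 227930_at, AGO1 higher by 1 of 3, and AGO3 by 0 of 3 at the settings used throughout.

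**Figure D5:**
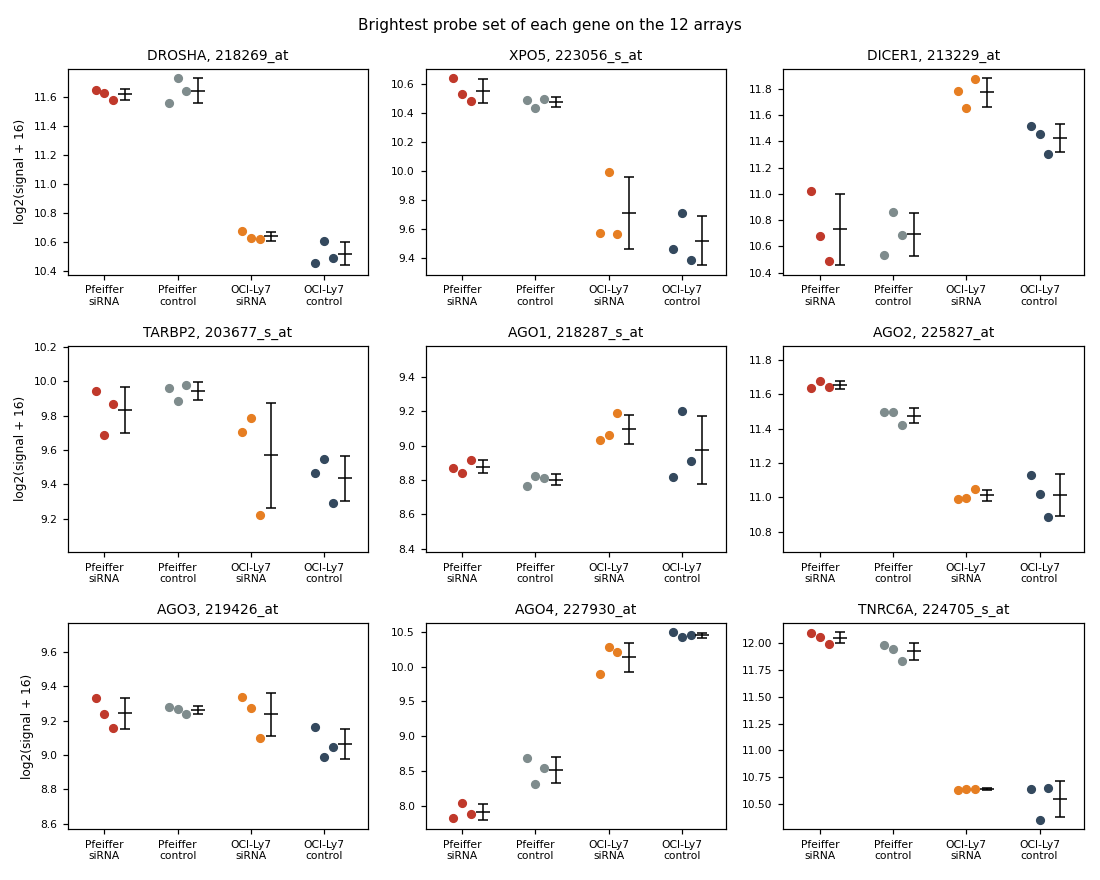
The brightest probe set of each of the 9 genes on the 12 arrays, as log2 of the signal plus 16, each point 1 array and the bar the mean ± SD (n = 3), with vertical axes that differ between panels. DROSHA, XPO5, AGO2 and TNRC6A lie higher in Pfeiffer, DICER1 and AGO4 in OCI-Ly7. In these panels siRNA and control means of a line differ by less than the control means of the lines. The gap is least small for DICER1, at 0.35 in OCI-Ly7 beside −0.73 between lines, and AGO2, at 0.18 in Pfeiffer beside 0.46.

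TNRC6A, the GW182 scaffold that couples Argonaute to the deadenylases, had 6 probe sets, all tested. The brightest, 224705_s_at, read 12.10, 12.06 and 11.996 in Pfeiffer with BCL6 siRNA against 11.99, 11.95 and 11.84 in Pfeiffer controls, and 10.63, 10.64 and 10.64 against 10.64, 10.35 and 10.65 in OCI-Ly7. The Pfeiffer groups lay next to each other without overlap (0.13 ± 0.08, adjusted p = 0.335), and the OCI-Ly7 groups overlapped (0.09 ± 0.08, adjusted p = 0.709). Probe set 224704_at read 11.07, 10.76 and 10.98 in Pfeiffer with BCL6 siRNA against 10.94, 11.05 and 10.80 in Pfeiffer controls, and 9.88, 9.79 and 9.88 against 9.65, 9.66 and 9.91 in OCI-Ly7. Its groups overlapped in both lines, with changes of 0.01 ± 0.10 in Pfeiffer (adjusted p = 0.966) and 0.11 ± 0.10 in OCI-Ly7 (adjusted p = 0.731).

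The TNRC6A probe set 234734_s_at pointed in opposite directions in the lines. It read 10.11, 10.06 and 10.06 in Pfeiffer with BCL6 siRNA against 9.82, 9.85 and 9.93 in Pfeiffer controls, without overlap, and 8.79, 9.05 and 8.59 against 8.86, 9.25 and 9.14 in OCI-Ly7, with overlap. The differences were 0.21 ± 0.12 in Pfeiffer (adjusted p = 0.319) and −0.28 ± 0.12 in OCI-Ly7 (adjusted p = 0.36), and the interaction of 0.48 ± 0.17 had an adjusted p of 0.119. Leaving out replicate 2 of OCI-Ly7 with BCL6 siRNA gave 0.61 with an adjusted p of 0.0415, and over its 21 alternatives the adjusted p ran from 0.0415 to 0.252.

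Between the control arrays of the lines, 3 TNRC6A probe sets were higher in Pfeiffer: 224705_s_at by 1.38 ± 0.08 (adjusted p = 2.01e-10), 224704_at by 1.19 ± 0.10 (adjusted p = 2.38e-08) and 234734_s_at by 0.78 ± 0.12 (adjusted p = 3.13e-05). The first corresponds to 2.6 times the OCI-Ly7 signal. The remaining 3, 243834_at, 1553346_a_at and 233836_at, differed by 0.16, 0.55 and 0.80, with standard errors of 0.23 to 0.49 and no call. Single arrays set that spread: 1553346_a_at read 4.90, 7.05 and 6.92 in OCI-Ly7 with BCL6 siRNA, and 233836_at read 7.08, 5.15 and 7.43 in OCI-Ly7 controls. Without replicate 3 of those controls 233836_at was called, at 1.24 (adjusted p = 0.0197; range over 20 alternatives 0.0197 to 0.743). Without replicate 2, the array at 5.15, it differed by 0.10 and was not called. In OCI-Ly7 233836_at averaged 6.77 with BCL6 siRNA and 6.55 in controls, against 7.11 and 7.36 in Pfeiffer. For 1553346_a_at these means were 6.29 and 6.97, against 7.52 and 7.52. The filter, at 6.78, thus favoured both through Pfeiffer, and their differences between lines are descriptions. With siRNA 243834_at, 1553346_a_at and 233836_at differed by 0.29, −0.0048 and −0.25 in Pfeiffer and by 0.37, −0.67 and 0.22 in OCI-Ly7, none called.

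The 7 probe sets below the filter belonged to AGO1 (239036_at), AGO3 (235782_at), AGO4 (222842_at and 1569408_at) and DICER1 (216260_at, 216280_s_at and 216281_at). Their means over the 12 arrays ran from 4.84 for 216281_at to 6.71 for 235782_at. Their siRNA differences ran from −0.85 to 0.59 in Pfeiffer and from −1.17 to 0.92 in OCI-Ly7. With the filter dropped, none of the 7 was called for siRNA in either line, with adjusted p from 0.367 to 0.995 by limma. The DICER1 probe set 216281_at read 5.40, 5.72 and 6.14 in OCI-Ly7 with BCL6 siRNA against 5.56, 4.44 and 4.49 in controls, and overlapped. Between control arrays the unfiltered fit called AGO4 222842_at lower in Pfeiffer, with a difference of −2.18 (adjusted p = 0.000799) and AGO3 235782_at higher by 1.35 (adjusted p = 0.0052).

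The wider pathway was read from lists of genes that work with these members. Of 12 Microprocessor partners, RNA helicases and RNA-binding proteins that assist Drosha, 9 were measured, with 25 tested probe sets. None was called in Pfeiffer or OCI-Ly7 by limma; unadjusted p under 0.05 was reached by 5 in Pfeiffer, all lower, and by 1 in OCI-Ly7, higher, against 24.9% and 12.8% of all probe sets. Their median change was −0.0058 in Pfeiffer and −0.00013 in OCI-Ly7, beside 0.0062 and −0.00081 over all probe sets tested.

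Of the 12 hairpin and dicing partners, 11 had tested probe sets, 24 in all, and 1 was higher and 1 lower in Pfeiffer, against 12.2% of all probe sets called there. In OCI-Ly7 0 were called, against 1.59%, and limma gave an unadjusted p under 0.05 to 4, against 12.8%. RAN, the GTPase that loads exportins, fell by one of its probe sets: 200749_at read 11.44, 11.34 and 11.32 in Pfeiffer with BCL6 siRNA against 11.67, 11.80 and 11.63 in controls (−0.33 ± 0.06, adjusted p = 0.00241). Its second probe set, 200750_s_at, differed by 0.09 (adjusted p = 0.308), so RAN as a gene was not settled. PRKRA (PACT), another Dicer partner, rose in Pfeiffer by 1 of 2 tested probe sets, with 10.87, 10.87 and 11.02 against 10.73, 10.71 and 10.68 in 209139_s_at (0.21 ± 0.06, adjusted p = 0.0347), while 237107_at differed by 0.23 (adjusted p = 0.399). In OCI-Ly7 209139_s_at differed by −0.20 (adjusted p = 0.155) and 237107_at by −0.55 (adjusted p = 0.104), neither called. Gene means called PRKRA lower there (adjusted p = 0.0449), as did the fit of each line on its own arrays for 237107_at (0.0271). The interaction was called for 209139_s_at (0.41, adjusted p = 0.0107) and for 237107_at (0.79, adjusted p = 0.0467). The RAN call held in all 23 alternatives. The PRKRA rise held in 14 of 24 and was lost without replicate 3 of Pfeiffer with BCL6 siRNA (adjusted p = 0.102) or without any 1 of the Pfeiffer controls (0.0702, 0.0806 and 0.102). Its interaction held in 22 of 23 alternatives for 209139_s_at and in 9 of 21 for 237107_at, which was lost without any 1 of 9 arrays (adjusted p from 0.0614 to 0.116). The list's median change was 0.01 in Pfeiffer and −0.06 in OCI-Ly7.

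Argonaute loading needs the HSP90 chaperone machine. Of 19 genes for loading and Argonaute partners, 15 had tested probe sets, 34 in all, of which 7 were higher and 1 lower in Pfeiffer, against 6% and 6.24% of all probe sets, and 1 was higher in OCI-Ly7, against 0.925%. The 7 were of 5 genes, all chaperones or cochaperones, while HSPA8, another chaperone on the list, had no call with siRNA in either line. HSP90AA1 rose by 0.28 ± 0.06 in 211969_at (adjusted p = 0.00687), with 2 of its 4 tested probe sets called. HSP90AB1 rose by 0.19 ± 0.05 in 214359_s_at (adjusted p = 0.0178), with 2 of 3 called, and PTGES3, the cochaperone p23, by 0.21 ± 0.05 in its single tested probe set, 200627_at (adjusted p = 0.00601). STIP1 and FKBP4 are cochaperones named here after their values were seen, each with 1 of 2 tested probe sets called. STIP1 rose by 0.29 in 212009_s_at (adjusted p = 0.034), and 213330_s_at differed by 0.14 (adjusted p = 0.394). FKBP4 rose by 0.37 in 200894_s_at (adjusted p = 0.0371), and 200895_s_at differed by 0.20 (adjusted p = 0.301). FMR1, an RNA-binding protein that interacts with Argonaute, fell by 0.26 on the log2 scale in 203689_s_at (adjusted p = 0.0329), and its other tested probe set, 215245_x_at, differed by −0.20 (adjusted p = 0.0897). These chaperones serve many clients besides Argonaute. In OCI-Ly7 PTGES3 differed by 0.18 (adjusted p = 0.072), while HSP90AA1 211969_at differed by 0.02. Differences between the lines were called for HSP90AB1 214359_s_at (0.25, adjusted p = 0.0384) and FKBP4 200894_s_at (0.62, adjusted p = 0.025), but not for FKBP4 200895_s_at (0.05, adjusted p = 0.904). The list's median change was 0.05 in Pfeiffer and 0.01 in OCI-Ly7.

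Of the Pfeiffer calls in this list, those of PTGES3 and HSP90AA1 211969_at held in all 25 and all 23 alternatives. The others were lost with single arrays left out. Without replicate 1 of the Pfeiffer controls the adjusted p was 0.0674 for HSP90AB1 214359_s_at, 0.128 for STIP1 212009_s_at, 0.114 for FKBP4 200894_s_at and 0.0648 for FMR1 203689_s_at, and each was also lost without replicate 2 of those controls (0.0621, 0.0955, 0.0847 and 0.108). Leaving out replicate 3 of Pfeiffer with BCL6 siRNA lost STIP1, FKBP4 and FMR1 (0.116, 0.134 and 0.0929), leaving out its replicate 1 lost HSP90AB1 and FMR1 (0.0562 and 0.0798), and leaving out replicate 3 of the Pfeiffer controls lost FKBP4 and FMR1 (0.0786 and 0.0692). The second called probe sets of HSP90AA1 and HSP90AB1 held in 11 of 24 and 11 of 23 alternatives, and were lost without any 1 of 8 and any 1 of 7 arrays. The FKBP4 interaction held in 15 of 21 alternatives and was lost without any 1 of 5 arrays (adjusted p from 0.0513 to 0.0657). The HSP90AB1 interaction held in 9 of 21 and was lost without any 1 of 9 arrays (from 0.0552 to 0.0919).

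The OCI-Ly7 call of that list was LIMD1, an adaptor that links Argonaute to the cap-binding complex. Its probe set 222762_x_at differed by 0.06 in Pfeiffer. The OCI-Ly7 values were 11.28, 11.03 and 11.37 with BCL6 siRNA against 9.88, 10.01 and 9.66 in controls, a rise of 1.37 ± 0.16 (adjusted p = 0.000415), with an interaction of −1.31 (adjusted p = 0.00243). Its other probe sets, 218850_s_at and 234687_x_at, differed by 0.50 (adjusted p = 0.22) and 0.33 (adjusted p = 0.564) in OCI-Ly7. With the LIMD1 probe sets averaged, neither the rise nor the interaction was called (adjusted p = 0.25 and 0.216). The identifier of the called probe set marks possible binding of other transcripts.

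Among 30 GW182 and mRNA decay genes, 29 had tested probe sets, 70 in all, and 2 were higher and 4 lower in Pfeiffer, so 6 of 70 were called against 12.2% of all probe sets. In OCI-Ly7 0 were called, against 1.59%, and 3 had an unadjusted limma p under 0.05, against 12.8%. BTG1, an antiproliferative protein that binds the deadenylase CAF1, fell most clearly: 200921_s_at read 11.78, 12.11 and 11.85 in Pfeiffer with BCL6 siRNA against 12.69, 12.67 and 12.72 in controls (−0.78 ± 0.07, adjusted p = 5.12e-06), and 200920_s_at differed by −0.69 (adjusted p = 6.83e-06). In OCI-Ly7 200921_s_at differed by −0.05, and the interaction was called (−0.73, adjusted p = 0.000627). PATL1, a decapping scaffold, rose by 0.44 in 235234_at (adjusted p = 0.0155), and its other probe sets were not called. DCP1A, a decapping cofactor, rose by 0.30 in 225443_at (adjusted p = 0.049), and its other tested probe set, 218508_at, differed by 0.28 (adjusted p = 0.291). TNRC6B, the paralogue of TNRC6A, fell by 0.41 on the log2 scale in 1 of 7 tested probe sets, 238468_at (adjusted p = 0.0402). DCP2, the decapping enzyme, was the remaining call, lower by 1 of 4 tested probe sets, and is named here after its value was seen. Probe set 244777_at read 9.75, 9.89 and 9.59 in Pfeiffer with BCL6 siRNA against 9.87, 10.19 and 10.41 in controls, with overlap (−0.41 ± 0.13, adjusted p = 0.0497), and the other DCP2 probe sets differed by −0.14, −0.37 and 0.35 (adjusted p = 0.127, 0.0887 and 0.338). Both BTG1 calls held in all alternatives run, 24 and 22. The PATL1 call was lost without replicate 3 of the Pfeiffer controls (adjusted p = 0.0532) or of Pfeiffer with BCL6 siRNA (0.0538). The TNRC6B call held in 11 of 22 alternatives, that of DCP1A in 7 of 25 and that of DCP2 in 6 of 23, and with 1 array left out their adjusted p reached 0.147, 0.204 and 0.209. The first 2 did so without replicate 1 of the Pfeiffer controls and DCP2 without replicate 3. The list's median change was −0.04 in Pfeiffer and −0.03 in OCI-Ly7.

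The PIWI clade, Argonaute relatives of the germ line, had 5 probe sets of 3 genes and 0 passed the filter. Of 14 primary microRNA host transcripts 9 were measured and 3 had tested probe sets, 8 in all. None of these was called for siRNA in either line by limma, with 2 of 8 in Pfeiffer and 0 in OCI-Ly7 at an unadjusted p under 0.05, against 24.9% and 12.8%, and their median change was −0.24 in Pfeiffer and −0.18 in OCI-Ly7. Listed genes that were not measured by a single-symbol probe set were not analysed here.

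Likeness of pattern was described for AGO2 and DICER1 by Pearson correlation over the 12 arrays after the mean of each line was removed. The probe sets closest to AGO2 225827_at were of LRP8 (r = 0.975), SFPQ (0.953), TG (0.945), RBM4 (0.939) and HNRNPD (0.931), beside a 99th percentile of 0.773 over all probe sets tested. Those closest to DICER1 213229_at were of RNF6 (0.947), STAM2 (0.940), BZW1 (0.927), UBA3 (0.918) and DCAF5 (0.908), beside 0.760. The 12 points share lines, treatment groups and array scaling, and the correlations are descriptions.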

How the data were processed

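Total RNA of the 12 samples was hybridised to Affymetrix U133 Plus 2.0 arrays. The deposited log2 values were made with MAS5 in affy, per the submitters' processing notes, with no version given. On the linear scale each array's mean, with 2% trimmed at either end, was 500, so the authors had scaled the arrays. No depth applies to arrays, and their number limits the precision. The deposited table held 54675 probe sets: 41091 with 1 symbol, 1801 with several, 11721 with none and 62 controls. Names came from the platform annotation, and 41037 identifiers were found in RefSeq (GRCh38.p14). Promoter sequences are RefSeq's.

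Linear signals plus 16 were turned into log2 again, which understates the change of dim genes. Probe sets at or above the median of their 12-array means were tested (20546, lowest level 6.78, linear signal 94.1). limma 3.58.1 (lmFit, eBayes with trend; R 4.3.3) was fitted on all 12 arrays with 4 group means, 8 residual and a median of 6.98 prior degrees of freedom. Tests were two-sided, with Benjamini-Hochberg adjustment over the 20546. The script was tested on simulated data. The members and lists were chosen with earlier results of these data known. Named from each list were up to 4 genes per line with the lowest p among called probe sets. Replicate numbers were not used as pairs: deviations of same-numbered siRNA and control arrays correlated at −0.045 to 0.057. Those of differently numbered arrays correlated at −0.075 to 0.057. No shared replicate effect was seen, but this cannot show whether the samples were paired in the experiment. Figures used matplotlib 3.10.9 in Python 3.11.15. Alternatives are listed in the closing section.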

Additional observations from a re-analysis of the deposited data

How the results depend on the processing

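The members' values and the counts of calls were recomputed under quantile normalization, pseudocounts of 1 and 64, other filters, other treatments of several probe sets per gene, limma with no trend, with array weights, with each line apart or with a replicate block, and leaving out each array. No called member value changed sign, and 58 of 1777 uncalled ones did.

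In OCI-Ly7 the 327 calls over all probe sets became 187 with no filter, 126 with gene means, 178 when probe sets that may bind related transcripts were dropped, 115 with no trend, 503 with array weights and 175 with the replicate block, and ran from 115 to 406 with an array left out. The 0 member calls there became 1 with quantile normalization, pseudocount 64, the stricter brightness filter or array weights, and 2, both DICER1, with each line on its own arrays. They ran from 0 to 1 with an array left out. In Pfeiffer the 2515 calls became 1587 with the brightest probe set per gene, 1005 with gene means and 1362 without related-transcript probe sets, and the 1 member call became 0 with gene means. The 1313 interaction calls became 872, 520 and 693 under the same settings and 824 with no trend, and the members' 0 became 1 without replicate 1 of Pfeiffer with BCL6 siRNA (DICER1 212888_at) or without replicate 2 of OCI-Ly7 with BCL6 siRNA (TNRC6A 234734_s_at). The 14587 line calls became 8184 with the stricter brightness filter, 7562 with the brightest probe set, 6917 with gene means and 8297 without related-transcript probe sets, and the 14 member calls became 7 in each of the last 3. The number of features tested differed between settings, against 20546 in the main fit. It was 41091 with no filter and 10273 with the stricter brightness filter. It was 9888 with the brightest probe set or gene means and 11709 without related-transcript probe sets. In these last 3 settings 9, 9 and 13 member features were tested, against 24, so the counts cannot be compared as shares. Quantile normalization turned the 14 member line calls into 17, adding AGO1 222576_s_at and AGO3 219426_at and 228932_at. The replicate block left the member counts as they were in all comparisons.

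The same alternatives were applied, a choice made after seeing the data, to the called probe sets of the pathway lists and to BCL6, and no called value changed sign. Of 16 Pfeiffer calls of the lists 5 held in every alternative run (RAN 200749_at, PTGES3, HSP90AA1 211969_at and both BTG1 probe sets), and the other 11 were each lost with 1 array left out. The OCI-Ly7 call of LIMD1 was lost with gene means. Of 8 interaction calls 2 held in every alternative (RAN and BTG1 200921_s_at).

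With 3 arrays a group, differences such as 0.34 for DICER1 212888_at and −0.62 for AGO4 219190_s_at in OCI-Ly7 were not called, so changes of that size could be missed, and dim probe sets, where MAS5 signals are noisy, had wider errors.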
